A study of Mus musculus with 17 samples.

Results

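Bulk RNA-seq counts of mouse cardiac fibroblasts (CFs) at 3 days post infarction (dpi) were compared with those at 2 dpi, across all genes. The comparison took the 4 libraries of 3 dpi and the 3 libraries of 2 dpi, 7 of the 17 libraries in the count table, and the 3 libraries of 4 dpi served to see whether each change persisted. Libraries of 1, 5 and 6 dpi (3, 1 and 3 libraries) were used as further points of reference. All 17 libraries came from C57BL/6 mice carrying the *Collagen1a1*-GFP transgene, 8 to 10 weeks old, whose hearts had been infarcted, and no library of an uninfarcted heart was analysed here. GFP was driven by a *Col1α1* promoter, so that the sort follows the activity of a collagen gene, and cells were collected as GFP+/CD31-/CD45-, which leaves out endothelial cells and leukocytes. MARS-seq primes poly-A RNA with poly-dT and reads transcripts near the 3′ end. The 3 dpi columns of the count table are named by another scheme than those of the other days, and what else differed in how these libraries were made is not given, so the day and the naming scheme cannot be told apart in the comparison of 3 with 2 dpi.

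After an infarct, resident CFs leave a resting state, divide, move into the damaged wall and lay down the collagen that replaces the lost muscle. Cells that add smooth muscle actin fibres and contract are called myofibroblasts, and a later fibroblast state marked by *Cthrc1*, the reparative cardiac fibroblasts (RCFs), is associated with scar formation. Cell division is run by successive waves of transcription, with genes of DNA synthesis switched on by E2F factors around S phase and genes of mitosis switched on later, partly through promoter elements named the CCAAT box and the CHR.

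The libraries of 2 dpi held between 17180039 and 18866820 counts and those of 3 dpi between 8465454 and 14123952, so that the lowest level that can be shown, taken as 3 counts, was between 0.159 and 0.1746 CPM (counts scaled to the normalised library size) at 2 dpi and between 0.2124 and 0.3544 CPM at 3 dpi. Replicate pairs within 2 and within 3 dpi differed by more than counting error, and the chi-square of their counts, divided by its degrees of freedom, was 22.86 to 212.55 over 9 pairs. Fibroblast markers were abundant on both days. The 10 of them measured, among them *Col1a1*, *Col1a2*, *Col3a1*, *Pdgfra*, *Dcn*, *Tcf21* and *Thy1*, summed to between 28400 and 38200 CPM at 2 dpi and between 30200 and 40500 CPM at 3 dpi. *Col1a1* alone was at 16800 CPM in 3 dpi replicate 2, where the sum was 40500 CPM. The log2 fold change (explained below) was positive in 4 and negative in 6, with a median of -0.29. Only *Lum*, which fell, passed the edgeR test below, while 7 were under 0.05 without adjustment and DESeq2 called 4 higher and 2 lower. *Pecam1*, which encodes CD31, was at 6.69, 12.8 and 2.6 CPM at 2 dpi and at 3.28, 2.17, 8.02 and 0.851 CPM at 3 dpi. *Ptprc*, which encodes CD45, was at 0 in every 2 dpi library and in 3 dpi replicates 1 and 2, and at 2.75 and 2.13 CPM in replicates 3 and 4. Transcripts of the mitochondrial genome took between 1.354% and 1.699% of the counts at 2 dpi, between 0.321% and 0.782% at 3 dpi and between 1.22% and 2.044% at 4 dpi. The 4 Y-linked genes measured summed to between 58.6 and 71.7 CPM at 2 dpi, between 42.8 and 59.1 CPM at 3 dpi and at most 0.534 CPM at 4 dpi, while *Xist* was at 2.73, 1.81 and 2.42 CPM at 2 dpi, at 0.0886, 0.161, 0 and 0 CPM at 3 dpi and at 126 CPM or more at 4 dpi. *Xist* and the Y-linked *Ddx3y* were lower at 3 than at 2 dpi without overlap, with edgeR adjusted p-values of 0.066 and 0.13. In any comparison with 4 dpi the day and the far larger sex-linked difference cannot be told apart.

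From 2 to 3 dpi, 412 of 14030 genes tested changed (2.94%), 255 of them to a higher level (1.82%) and 157 to a lower level (1.12%), by edgeR's quasi-likelihood F-test with a Benjamini-Hochberg adjusted p under 0.05. Without adjustment, 2567 genes were under 0.05. A log2 fold change here is the fitted difference in log2 level, given with its standard error (SE), and the median over all genes tested was 0.039. Among the 255 rises, 249 showed no overlap between the libraries of the 2 days, and so did 153 of the 157 falls, where over all genes 9.7% lay with every 3 dpi library above every 2 dpi library and 8.95% with every one below. The number of calls depended on single libraries. It was 243, 46 and 133 without 2 dpi replicates 1, 2 and 3, and 209, 734, 430 and 197 without 3 dpi replicates 1 to 4. In bulk RNA a lower level can come from fewer cells of a kind or from less RNA per cell, and these cannot be told apart. The paper's methods call the replicates biological, but neither they nor the labels say which animals or pools of animals made up each bulk library, so the p-values measure the spread between these libraries.

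**Figure D1:**
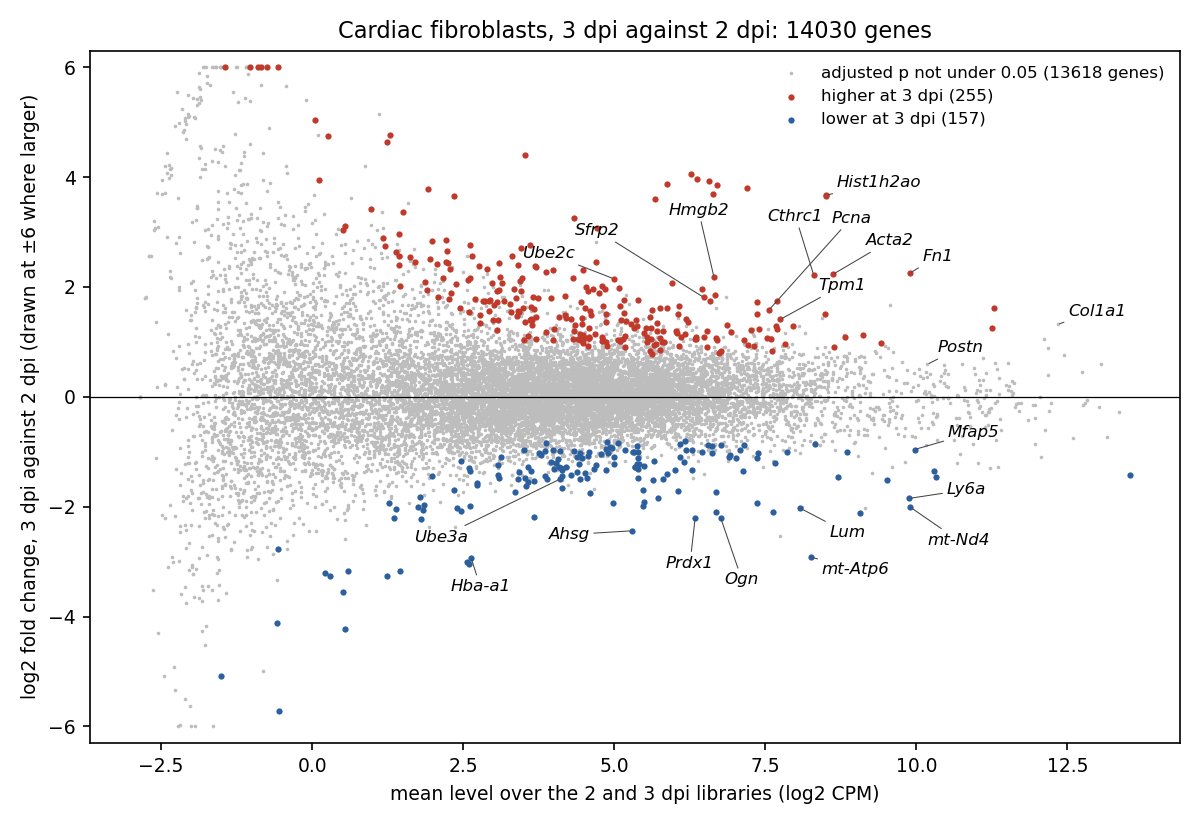
Each point is 1 of the 14030 genes tested, with its mean log2 CPM over the 2 and 3 dpi libraries on the horizontal axis and its log2 fold change at 3 dpi against 2 dpi on the vertical axis, drawn within ±6. Coloured points are the 255 genes called higher and the 157 called lower, which lie on both sides of a median of 0.039.

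Genes of cell division were the largest group among the rises that the lists described. The 3 lists of cell cycle genes together gave 29 of the 255 rises (11.4%), although they hold 109 genes, 0.78% of those tested. In the list of mitosis and cytokinesis, 19 of 44 genes rose and none fell, 43 had a positive log2 fold change, and the median was 1.71. *Ube2c*, *Hmgb2*, *Cenpa* and *Ccnb2* had the smallest adjusted p-values of that list. The bases in front of their transcription starts are printed here because these genes moved together, with each CCAAT (or its reverse complement ATTGG) and each TTTGAA (or TTCAAA), the letters of the CHR, in capitals. They are the 250 bases before the RefSeq start on GRCm38.p6, read 5′ to 3′ along the gene's strand, at chr2:164769679-164769928 (plus strand) for *Ube2c*, chr8:57511593-57511842 (plus) for *Hmgb2*, chr5:30666636-30666885 (plus) for *Cenpa* and chr9:70421555-70421804 (minus) for *Ccnb2*.
Ube2c: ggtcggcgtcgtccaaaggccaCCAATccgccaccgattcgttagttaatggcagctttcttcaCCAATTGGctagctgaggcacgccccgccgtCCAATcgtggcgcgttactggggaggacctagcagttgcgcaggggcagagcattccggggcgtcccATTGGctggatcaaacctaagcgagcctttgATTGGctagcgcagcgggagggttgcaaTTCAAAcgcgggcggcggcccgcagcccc
Hmgb2: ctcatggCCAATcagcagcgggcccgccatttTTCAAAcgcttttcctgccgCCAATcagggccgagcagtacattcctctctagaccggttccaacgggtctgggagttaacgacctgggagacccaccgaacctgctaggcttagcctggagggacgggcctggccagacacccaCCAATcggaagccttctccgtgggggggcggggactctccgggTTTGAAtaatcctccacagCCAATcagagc
Cenpa: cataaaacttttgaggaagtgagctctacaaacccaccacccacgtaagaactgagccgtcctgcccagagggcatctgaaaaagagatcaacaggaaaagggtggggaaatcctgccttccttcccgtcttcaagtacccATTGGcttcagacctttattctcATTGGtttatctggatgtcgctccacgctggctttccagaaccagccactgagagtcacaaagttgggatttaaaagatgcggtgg
Ccnb2: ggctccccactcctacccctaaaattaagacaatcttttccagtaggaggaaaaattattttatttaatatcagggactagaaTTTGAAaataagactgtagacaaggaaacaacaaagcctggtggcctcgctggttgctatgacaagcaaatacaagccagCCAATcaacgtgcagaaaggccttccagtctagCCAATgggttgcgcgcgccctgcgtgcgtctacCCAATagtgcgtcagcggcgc
Searched on both strands over windows of 250 bases before and 50 after the start, CCAAT was present for 28 of the 37 mitosis genes with a window (75.7%) and for 41.1% of all 27025 symbols. A CHR, spelt TTTGAA or TTCGAA, was present for 27 of the 37 (73.0%) and for 21.7% of all symbols. Both occurred for 24 of the 37 (64.9%) and for 8.6% of all. Both sets of letters were common in the mitosis genes whether or not they passed the test. CCAAT was found in 12 of 16 that rose (75%) and in 16 of 21 that did not (76.2%), and a CHR in 13 of 16 (81.2%) and 14 of 21 (66.7%). The printed *Cenpa* window holds CCAAT and no TTTGAA.

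*Ube2c*, the ubiquitin-conjugating enzyme of the anaphase-promoting complex (chromosome 2, 164769898 to 164778822), stood at 15.1, 10.7 and 15.4 CPM in 2 dpi replicates 1 to 3 and at 64.8, 79.4, 54.8 and 44.8 CPM in 3 dpi replicates 1 to 4. The lowest 3 dpi library was thus well above the highest of 2 dpi, and the log2 fold change was 2.15 (SE 0.30, edgeR adjusted p = 0.0017). *Hmgb2*, a chromatin protein of dividing cells, was at 40.0, 36.1 and 53.1 CPM at 2 dpi and at 259, 150, 175 and 197 CPM at 3 dpi. No library overlapped, and its adjusted p of 0.00023 by edgeR accompanied a log2 fold change of 2.18 (SE 0.24). *Cenpa*, the histone H3 variant of centromeres, went from 60.3, 28.7 and 35 CPM to 151, 147, 161 and 184 CPM, with 2 dpi replicate 1 highest on its day. Its log2 fold change was 1.96 (SE 0.33, edgeR adjusted p = 0.004). *Ccnb2*, a cyclin of mitotic entry, went from 37.3, 27.9 and 21.2 CPM to 98.7, 74.8, 90.4 and 89.9 CPM, a log2 fold change of 1.62 (SE 0.29, edgeR adjusted p = 0.006). The number of mitosis genes called was 11, 2 and 10 without 2 dpi replicates 1 to 3 and 12, 20, 20 and 12 without 3 dpi replicates 1 to 4, while the median stayed between 1.57 and 1.91. The genes still called without 2 dpi replicate 2 included *Ube2c* and *Hmgb2*, and *Cenpa* and *Ccnb2* then had edgeR adjusted p-values of 0.05 and 0.056. DESeq2 called 33 of the 44, all higher.

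Genes of DNA synthesis gave fewer calls. In the list of DNA replication and nucleotide synthesis, 6 of 40 rose and none fell, 39 had a positive log2 fold change, and the median was 1.16. *Tyms*, which makes thymidylate, was at 30.6, 30.2 and 47.7 CPM at 2 dpi and at 95.5, 183, 76.7 and 103 CPM at 3 dpi, and 3 dpi replicate 2 was the highest. The log2 fold change of *Tyms* was 1.66 (SE 0.30, edgeR adjusted p = 0.0054). *Pcna*, the sliding clamp of DNA polymerases, was at 126, 82.8 and 98.4 CPM at 2 dpi and at 249, 313, 283 and 379 CPM at 3 dpi without overlap. The 4 dpi libraries held only 75.6, 72.6 and 99.3 CPM of *Pcna*, so that it turned back, with a log2 fold change of 1.58 (SE 0.39, edgeR adjusted p = 0.034) at 3 against 2 dpi and of -1.89 (edgeR adjusted p = 0.014) at 4 against 3 dpi. The dUTPase gene *Dut* rose by a log2 fold change of 1.15 (SE 0.26), and *Rrm1*, a subunit of ribonucleotide reductase, by 1.06 (SE 0.25). Single libraries decided most of these calls, since 1, 0 and 4 genes of the list were called without 2 dpi replicates 1 to 3 and 1, 12, 9 and 3 without 3 dpi replicates 1 to 4. Without 2 dpi replicate 2, *Tyms* had an edgeR adjusted p of 0.061 and *Pcna* of 0.17. DESeq2 called 21 of the 40, and 33 were under 0.05 without adjustment by edgeR. The E2F letters TTTCCCGC or TTTGGCGC stood in the 300-base windows of 11 of 31 genes of this list (35.5%) and of 1.8% of all symbols, and in none of the 6 that rose.

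Among 25 cyclins, E2Fs and CDK inhibitors of G1, 4 rose and none fell, with a median log2 fold change of 0.92. They were *Ccne1*, the cyclin of S phase entry, *Foxm1*, a transcription factor of mitotic genes, and the repressor E2Fs *E2f7* and *E2f8*. *Ccne1* went from 1.18, 1.43 and 2.25 CPM to 11.8, 8.21, 4.16 and 10.4 CPM and *Foxm1* from 4.82, 4.94 and 7.79 CPM to 15.2, 21.2, 12.6 and 19.8 CPM, without overlap. *E2f7* was at 0.107, 0.319 and 1.21 CPM at 2 dpi and at 7.71, 7.48, 1.93 and 6.17 CPM at 3 dpi, where replicate 3 was low. *E2f8* had at most 7 counts in any 2 dpi library. With 1 library left out, between 0 (without 2 dpi replicate 2) and 4 of these genes were called, and 1 without each of 2 dpi replicates 1 and 3 and 3 dpi replicates 1 and 4. DESeq2 called 8 of the 25.

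Replication-dependent histone genes, which lack introns and are used when chromosomes are copied, gave 19 further rises (7.5% of the 255) from 61 tested. All 12 histone H2A genes of cluster 1 on chromosome 13 that were tested rose, with log2 fold changes between 3.07 and 4.06 and a median of 3.75. Among genes that averaged at least 100 counts and did not overlap between the days, 11 of the 12 largest rises were H2A genes. Of 15 H2B genes 6 rose and of 11 H4 genes 1 rose, while none of 9 H3, 5 H1 and 9 genes of clusters 2 and 3 passed the edgeR test. The H2A genes are near-identical copies, so that a read can fit several of them and the counts of *Hist1h2ao* and *Hist1h2ap* were in a ratio between 0.972 and 1.01 in every library. They are therefore given as 1 signal, and its division among the copies is uncertain. Summed over the 12 genes, the level was 378, 247 and 595 CPM at 2 dpi, 2740, 12900, 2730 and 3190 CPM at 3 dpi and 1460, 1440 and 630 CPM at 4 dpi. Replicate 2 of 3 dpi was far above the other 3 replicates, which still lay above every 2 dpi library. The single 5 dpi library was at 3550 CPM, and those of 1 dpi were between 69.5 and 151 CPM. Poly-dT priming is not the usual way to capture these transcripts, which mostly lack a poly-A tail. Of the 12, 7 turned back at 4 dpi and none was past the threshold at 4 against 2 dpi (median log2 fold change 1.49). At 4 against 1 dpi, 11 were higher, but the 1 dpi libraries already lay below those of 2 dpi. Their median log2 differences from the 2 dpi mean were -1.85, -1.29 and -2.33 in replicates 1 to 3. For the 11 H2A genes among the 12 largest rises, the log2 fold changes without 3 dpi replicate 2 lay between 1.11 and 3.38. The lowest was that of *Hist1h2ab*, which was not past the threshold at 4 against 1 dpi (edgeR adjusted p = 0.08). *Hist1h2ab* (3.25 with every library) was then not called, nor was it without any 1 of the 2 dpi libraries, and *Hist1h2ac* and *Hist1h2ai* were not called without 2 dpi replicate 2 (edgeR adjusted p = 0.05 and 0.068).

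Contractile genes were a second group among the rises. In the list of contractile genes of myofibroblasts, 9 of 29 rose, none fell, 23 had a positive log2 fold change, and the median was 0.74. *Acta2*, smooth muscle actin (chromosome 19, 34241090 to 34255590), was at 170, 117 and 225 CPM at 2 dpi and at 637, 1250, 517 and 800 CPM at 3 dpi. The groups were well apart, with 3 dpi replicate 2 the highest, and the log2 fold change was 2.23 (SE 0.34, edgeR adjusted p = 0.0024). *Tpm1*, a tropomyosin that stiffens actin fibres, rose from 124, 93.7 and 158 CPM to 320, 404, 266 and 344 CPM. *Palld*, an actin crosslinker of stress fibres, rose from 21.0, 14.9 and 30.5 CPM to 50.2, 125, 58.4 and 67.7 CPM, and *Cdh2*, N-cadherin, from 13.9, 7.97 and 11.5 CPM to 34.9, 54.5, 35.2 and 44.6 CPM. No library overlapped between the days in these genes, with log2 fold changes of 1.41 (SE 0.24) for *Tpm1*, 1.77 (SE 0.36) for *Palld* and 1.93 (SE 0.38) for *Cdh2* and edgeR adjusted p-values of 0.0041, 0.011 and 0.01. The other rises of the list were *Tagln*, *Cnn2*, *Csrp1*, *Actn1* and *Myh10*. Pericyte and smooth muscle markers moved with them, with 3 of 11 called higher and a summed level of 140, 228 and 177 CPM at 2 dpi and 320, 265, 259 and 254 CPM at 3 dpi without overlap. None of the 3 was called when any 1 of the 2 dpi libraries was left out, and the part of these cells in the contractile rises was not tested. Of the 9 rises, 7 were also past the threshold at 4 against 2 dpi and 7 at 4 against 1 dpi, and none turned back. *Acta2* was at 858, 897 and 708 CPM at 4 dpi and at 1370 CPM in the 5 dpi library, and *Palld* at 75.2, 106 and 136 CPM at 4 dpi. The number of contractile genes called was 4, 1 and 6 without 2 dpi replicates 1 to 3 and 8, 9, 9 and 4 without 3 dpi replicates 1 to 4. *Acta2* was the 1 gene called without 2 dpi replicate 2, when *Tpm1* had an edgeR adjusted p of 0.056, *Cdh2* of 0.094 and *Palld* of 0.099. The letters GGAATG of TEAD sites were in the windows of 10 of 23 genes of the list (43.5%) and of 16.6% of all symbols. A CArG box (CCWWWWWWGG, where W is A or T) was in those of 5 of the 23 (21.7%) and of 1.8% of all. TEAD letters were found in 4 of 7 genes that rose and in 6 of 16 that did not, and a CArG box in 1 of 7 and 4 of 16.

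**Figure D2:**
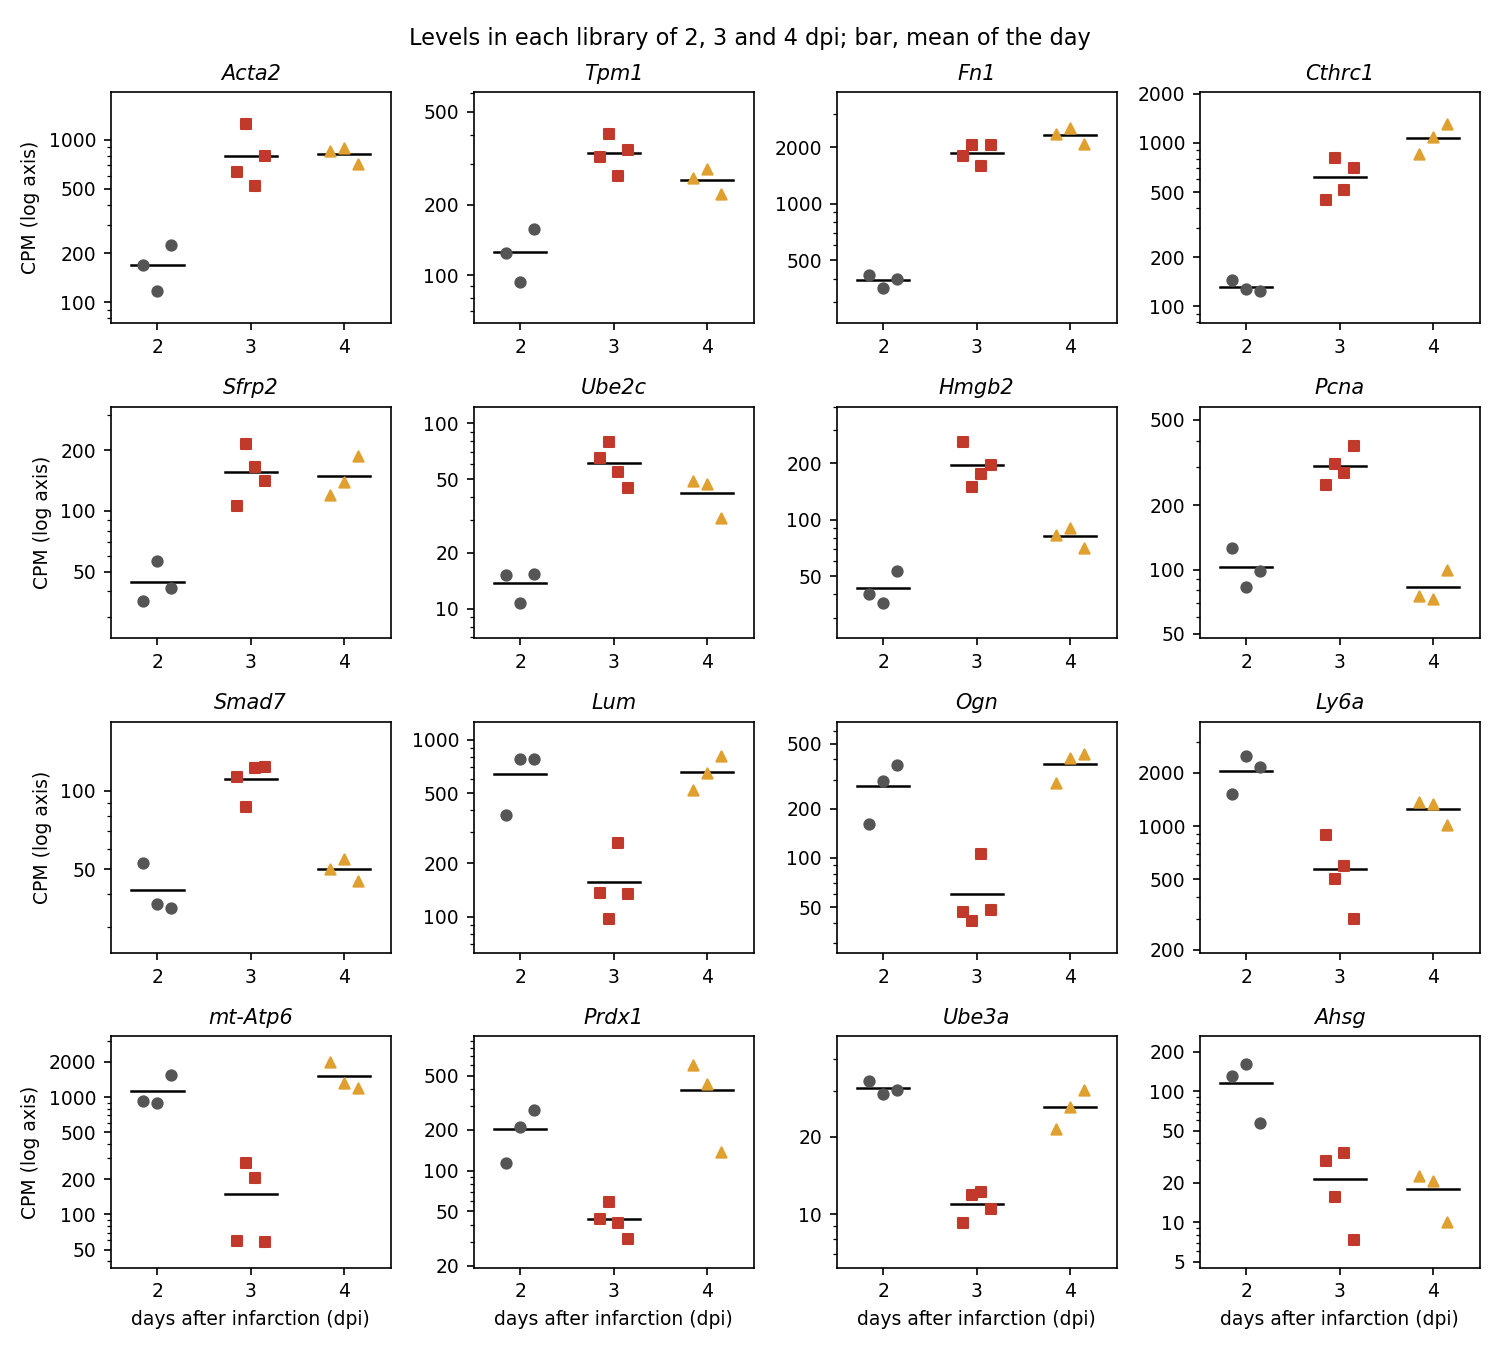
Levels of 16 genes in each library of 2, 3 and 4 dpi, as CPM on a logarithmic axis, 1 point per library. In *Acta2*, *Fn1* and *Cthrc1* the 3 and 4 dpi points both lie above those of 2 dpi, in *Hmgb2* and *Smad7* the 4 dpi points come back below those of 3 dpi, and in *Ogn*, *Lum* and *mt-Atp6* the 3 dpi points are the lowest. Bars mark the mean of a day.

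Matrix genes did not move as one group. Of 24 matricellular and adhesive glycoproteins, 2 rose and none fell, with a median log2 fold change of 0.49. These were *Fn1*, fibronectin (chromosome 1, 71585520 to 71653200), and *Cthrc1*, a secreted collagen triple helix repeat protein (chromosome 15, 39076932 to 39087121). *Fn1* was at 418, 357 and 400 CPM at 2 dpi and at 1790, 2050, 1580 and 2040 CPM at 3 dpi, a log2 fold change of 2.25 (SE 0.34, edgeR adjusted p = 0.0024). *Cthrc1* was at 145, 128 and 124 CPM at 2 dpi and at 450, 814, 514 and 702 CPM at 3 dpi, a log2 fold change of 2.22 (SE 0.28, edgeR adjusted p = 0.00052). The spread within each day was small against the step between the days, and both genes were called without each of the 7 libraries in turn. Both also stood higher at 4 than at 2 dpi, *Fn1* at 2360, 2540 and 2080 CPM and *Cthrc1* at 853, 1080 and 1300 CPM, and the 5 dpi library was the highest of all these, with 3960 and 1880 CPM.

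Among 24 fibrillar and beaded collagens, 2 rose and none fell, with a median log2 fold change of 0.37. *Col14a1*, a fibril-associated collagen, went from 94.3, 88.9 and 103 CPM to 189, 186, 273 and 239 CPM, a log2 fold change of 1.22 (SE 0.30, edgeR adjusted p = 0.034). *Col24a1*, a minor fibrillar collagen, was at 0 in every 2 dpi library and at 3.01, 1.21, 0.52 and 3.4 CPM at 3 dpi, on average at least 12.4-fold above the mean 2 dpi floor of 3 counts (edgeR adjusted p = 0.0068). The main collagens of scar did not pass the test. *Col1a1* was at 2990, 3730 and 3290 CPM at 2 dpi and at 4800, 16800, 5910 and 5690 CPM at 3 dpi, with a log2 fold change of 1.32 (SE 0.36) and an edgeR adjusted p of 0.055. Replicate 2 of 3 dpi stood apart in *Col1a1*, and every 3 dpi library was above every 2 dpi library. *Col1a2* had a log2 fold change of 1.06 (SE 0.29, edgeR adjusted p = 0.053) and *Col3a1* of 0.88 (SE 0.29, edgeR adjusted p = 0.1). At 4 against 2 dpi, 4 of the 24 collagens were higher, among them *Col14a1* and *Col24a1*. DESeq2 called 6 of the 24 higher at 3 against 2 dpi. With 1 library left out, edgeR called none without 2 dpi replicate 2, 1 without 2 dpi replicates 1 or 3 or 3 dpi replicate 4, and 2 or 3 otherwise. Without 2 dpi replicate 2 the edgeR adjusted p was 0.052 for *Col24a1* and 0.16 for *Col14a1*, and *Col14a1* was called only without 3 dpi replicate 2.

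Enzymes that modify or crosslink collagen gave 2 rises among 29 and no fall, with a median of 0.22. *Loxl2*, a lysyl oxidase that crosslinks collagen, went from 111, 69.4 and 95.3 CPM to 274, 230, 225 and 319 CPM, and *P4ha3*, a subunit of prolyl 4-hydroxylase, from 6.74, 7.91 and 8.48 CPM to 31.4, 15.8, 22 and 38.6 CPM. Neither overlapped between the days, and the log2 fold changes were 1.51 (SE 0.31, edgeR adjusted p = 0.011) and 1.80 (SE 0.37, edgeR adjusted p = 0.012). *P4ha3* was at 56.0, 57.5 and 64.9 CPM at 4 dpi, above every 3 dpi library, whereas *Loxl2* was at 219, 226 and 100 CPM. Both calls were lost without 2 dpi replicate 2, with edgeR adjusted p-values of 0.099 for *Loxl2* and 0.08 for *P4ha3*, neither was called without 2 dpi replicate 3, and *P4ha3* was not called without 2 dpi replicate 1. Of 19 matrix metalloproteinases and their inhibitors none passed the edgeR test, 4 were under 0.05 without adjustment, and DESeq2 called 1. The most abundant of them, *Timp1*, ranged from 2010 to 3130 CPM at 2 dpi and from 1720 to 7200 CPM at 3 dpi.

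Small leucine-rich proteoglycans bind collagen and space its fibrils. Of 12 tested, 3 fell and none rose, 11 had a negative log2 fold change, and the median was -0.61. *Ogn*, osteoglycin, was at 160, 297 and 371 CPM at 2 dpi, at 46.6, 41.2, 105 and 47.8 CPM at 3 dpi and at 288, 409 and 433 CPM at 4 dpi. *Lum*, lumican, was at 374, 777 and 779 CPM, then at 136, 97.0, 262 and 134 CPM, and at 520, 646 and 815 CPM at 4 dpi. In both genes 3 dpi replicate 3 was the highest of its day and still below every library of 2 and 4 dpi. *Ogn* fell by 2.20 on the log2 scale (SE 0.37, edgeR adjusted p = 0.004) and rose again by 2.64 (edgeR adjusted p = 0.00084) from 3 to 4 dpi. *Lum* fell by 2.03 (SE 0.37, edgeR adjusted p = 0.0061) and rose again by 2.07 (edgeR adjusted p = 0.0058). The 5 dpi library was at 164 CPM of *Ogn* and 189 CPM of *Lum*. *Omd*, the related osteomodulin, fell by 2.08 (SE 0.56, edgeR adjusted p = 0.047). With 1 library left out, *Omd* was called only without 2 dpi replicate 1. Of 17 elastic fibre genes only *Mfap5*, a microfibril protein, passed the test, from 1690, 1370 and 1360 CPM to 712, 885, 693 and 726 CPM, and back to 1430, 1420 and 1060 CPM at 4 dpi, with a fall of 0.96 (SE 0.23, edgeR adjusted p = 0.031). *Ogn* was called without each of the 7 libraries in turn, whereas without 2 dpi replicate 2 the edgeR adjusted p of *Lum* was 0.052 and that of *Mfap5* 0.10. Without 2 dpi replicate 2 only 1 of the 12 proteoglycans was called, and *Mfap5* was called only without 3 dpi replicate 2.

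Markers of resting and progenitor-like fibroblasts fell in part, and none rose. Of 30 tested, 5 fell, 26 had a negative log2 fold change, and the median was -0.48. *Ly6a*, which encodes the surface protein Sca-1, was at 1520, 2500 and 2150 CPM at 2 dpi and at 891, 506, 592 and 299 CPM at 3 dpi. *Ly6c1*, of the same gene cluster on chromosome 15, was at 350, 605 and 482 CPM and then at 151, 67.4, 161 and 70.6 CPM. No library overlapped, and *Ly6a* fell by 1.85 (SE 0.31, edgeR adjusted p = 0.0039) and *Ly6c1* by 2.09 (SE 0.36, edgeR adjusted p = 0.0042) on the log2 scale. *Pi16*, a marker of adventitial progenitor-like fibroblasts, went from 1050, 1850 and 1310 CPM to 517, 261, 771 and 416 CPM, and *Apod*, a lipid carrier, from 198, 321 and 219 CPM to 83.6, 106, 133 and 63.1 CPM. The fifth was *Mfap5*, described above. *Ly6a* and *Ly6c1* were called without each of the 7 libraries in turn, and *Pi16* had an edgeR adjusted p of 0.16 without 2 dpi replicate 2. The count of the list was 4, 2 and 2 without 2 dpi replicates 1 to 3 and 2, 5, 5 and 2 without 3 dpi replicates 1 to 4. At 4 against 2 dpi the median of the 30 was -0.74 and 4 were lower, none of them among the 5, with *Ly6a* at 1370, 1340 and 1020 CPM, below every 2 dpi library, and *Ly6c1* at 354, 309 and 200 CPM.

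Of 41 growth factors and receptors, none was called higher and 2 fell, with a median log2 fold change of 0.35. Without adjustment, 9 were higher and 3 lower under 0.05 by edgeR, and DESeq2 called 5 higher and 2 lower. *Igf1*, insulin-like growth factor 1, went from 187, 308 and 290 CPM to 94.4, 124, 152 and 112 CPM, and *Igfbp6*, which binds insulin-like growth factors, from 316, 436 and 356 CPM to 58.3, 157, 104 and 68.7 CPM. Both were without overlap, and the falls were 1.12 (SE 0.23, edgeR adjusted p = 0.013) and 1.93 (SE 0.39, edgeR adjusted p = 0.011) on the log2 scale. Without 2 dpi replicate 2 the edgeR adjusted p-values were 0.099 and 0.074, and *Igf1* was not called without 2 dpi replicate 3. At 4 dpi *Igf1* was at 196, 190 and 185 CPM and *Igfbp6* at 137, 127 and 252 CPM.

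In the list of TGF-beta ligands, receptors and feedback genes, 2 of 28 rose and 1 fell, with a median of -0.13. The rises were the inhibitory SMADs, which TGF-beta and BMP signalling switch on and which then dampen it. *Smad7* was at 52.9, 36.9 and 35.5 CPM at 2 dpi, at 113, 86.8, 122 and 124 CPM at 3 dpi and at 49.9, 54.6 and 45.2 CPM at 4 dpi. The 3 dpi libraries stood above those of both other days, and *Smad7* rose by 1.42 (SE 0.24, edgeR adjusted p = 0.0039) and fell by 1.16 (edgeR adjusted p = 0.011) from 3 to 4 dpi. *Smad6* had a log2 fold change of 1.08 (SE 0.27, edgeR adjusted p = 0.035), and *Lrrc32*, which holds latent TGF-beta at the cell surface, fell by 0.96 (SE 0.26, edgeR adjusted p = 0.048). Of these, *Smad7* was called without each of the 7 libraries in turn. *Smad6* was then called only without 3 dpi replicate 1 or 2, and *Lrrc32* in no such fit, with edgeR adjusted p-values up to 0.12 and 0.25.

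Of 26 WNT ligands, antagonists and targets, *Sfrp2*, a secreted WNT modulator, rose and none fell. It was at 35.9, 56.7 and 41.5 CPM at 2 dpi, at 106, 214, 165 and 141 CPM at 3 dpi and at 120, 139 and 186 CPM at 4 dpi, so that the later days both lay above 2 dpi. Its log2 fold change was 1.81 (SE 0.26, edgeR adjusted p = 0.0023), and it was called without each library in turn. Of 29 transcription factors of CFs, *Runx1*, a Runt domain factor, rose and none fell. *Runx1* went from 36.0, 19.9 and 29.8 CPM to 60.6, 79.2, 63.5 and 68.5 CPM and stood at 102, 119 and 70.2 CPM at 4 dpi. The rise was 1.25 (SE 0.25, edgeR adjusted p = 0.011), or an adjusted p of 0.099 by edgeR without 2 dpi replicate 2.

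**Figure D3:**
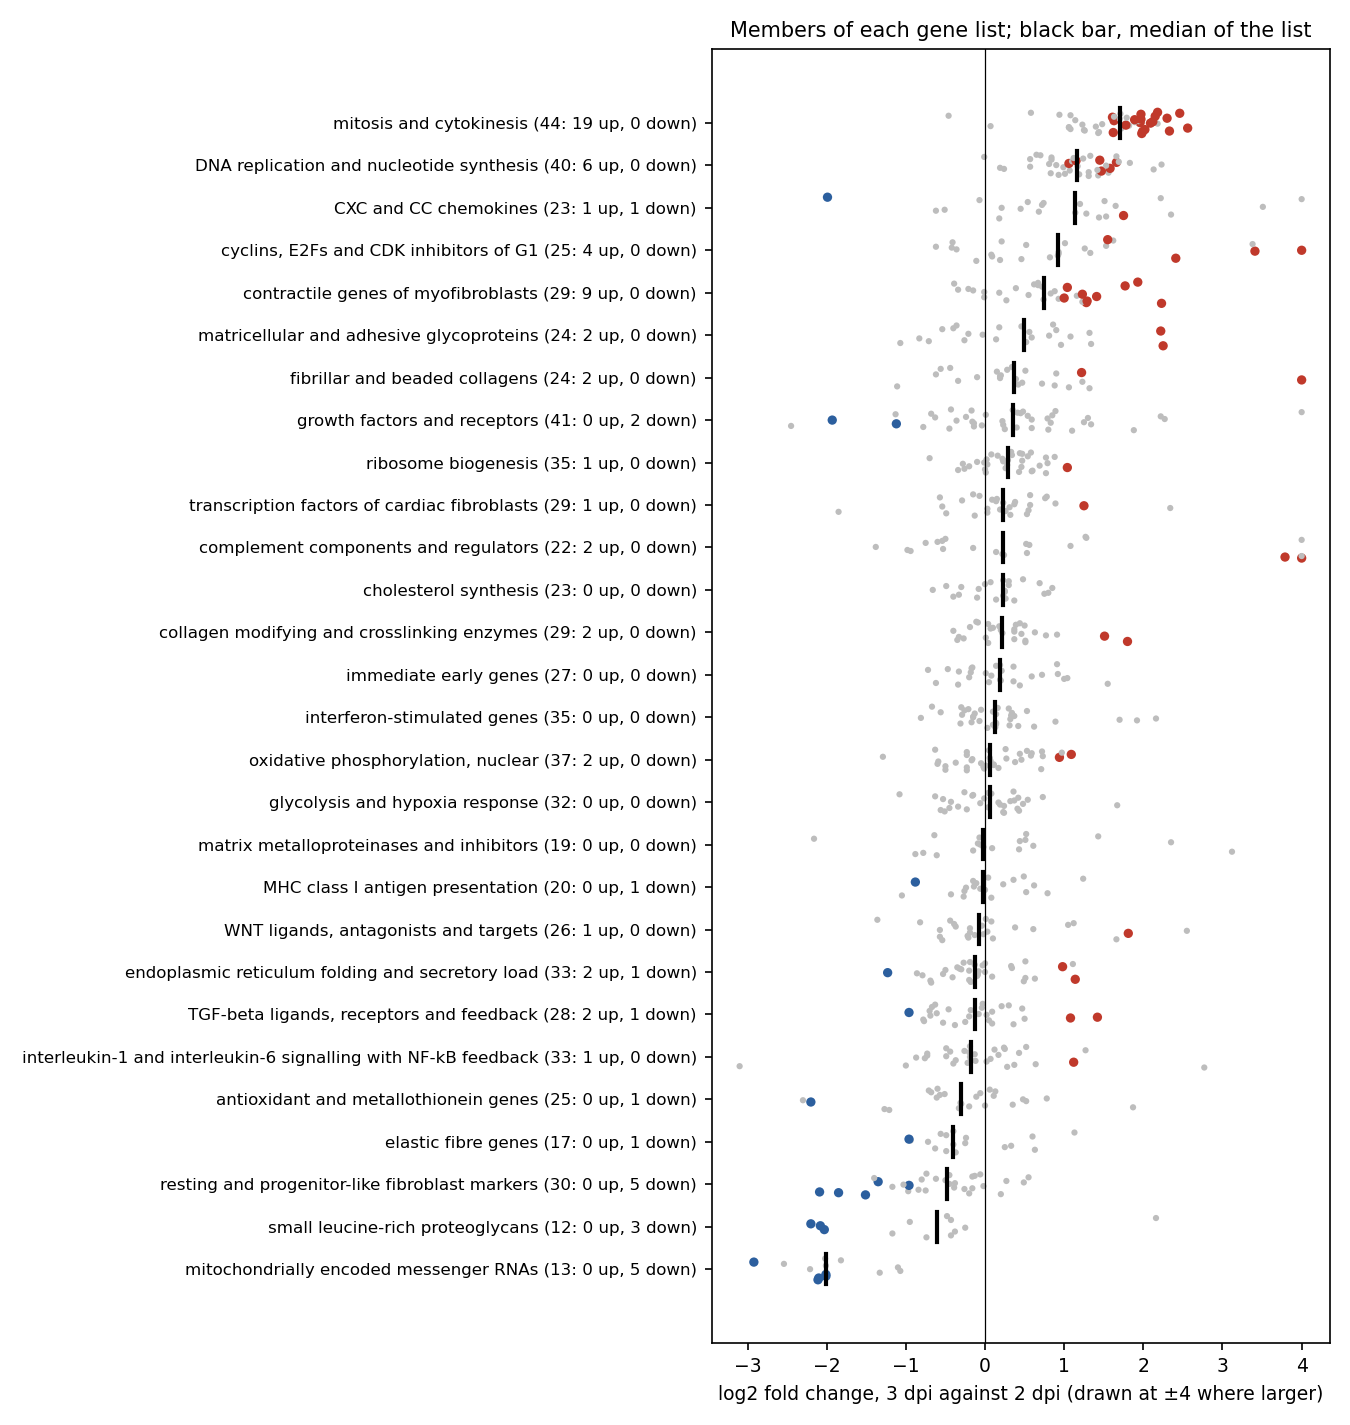
Log2 fold changes at 3 against 2 dpi of the members of the gene lists of processes and gene families, 1 point per gene drawn within ±4, with coloured points for genes past the threshold and a black bar at the list's median. The mitosis list lies to the right with a median of 1.71 and the mitochondrially encoded messenger RNAs to the left with a median of -2.01, whereas most other medians lie near 0.

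Of the 13 messenger RNAs encoded by the mitochondrial genome 5 fell and none rose. All 13 had a negative log2 fold change, between -2.92 and -1.07 with a median of -2.01, and 12 were under 0.05 without adjustment. *mt-Atp6*, a subunit of ATP synthase, was at 931, 900 and 1550 CPM at 2 dpi, at 58.9, 272, 204 and 58.4 CPM at 3 dpi and at 1980, 1320 and 1210 CPM at 4 dpi. *mt-Nd4*, a subunit of complex I, was at 1910, 2640 and 2450 CPM, then at 177, 809, 850 and 473 CPM, and at 1770, 2390 and 2360 CPM at 4 dpi. The 3 dpi libraries lay below all others of these days, and *mt-Atp6* fell by 2.92 (SE 0.52, edgeR adjusted p = 0.0054) and *mt-Nd4* by 2.01 (SE 0.45, edgeR adjusted p = 0.02) on the log2 scale. The other 3 were *mt-Nd1*, *mt-Nd2* and *mt-Nd3*, and all 5 turned back at 4 dpi. The single 5 dpi library was also low, with 87.8 CPM of *mt-Atp6* and 630 CPM of *mt-Nd4*. Summed over the 13 genes, the level was between 13000 and 16800 CPM at 2 dpi, between 2990 and 7010 CPM at 3 dpi, between 13800 and 18200 CPM at 4 dpi and 6260 CPM in the 5 dpi library. The number called was 3, 1 and 1 without 2 dpi replicates 1 to 3 and 2, 7, 7 and 1 without 3 dpi replicates 1 to 4, and *mt-Atp6* was called in each of these fits. DESeq2 called 8 of the 13. A mitochondrial share is also a common measure of cell and RNA state, and its part in this fall and in the other changes was not tested.

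None of the nuclear genes of oxidative phosphorylation was called lower. Of 37, *Cox5a* and *Uqcrfs1*, subunits of complexes IV and III, rose, and the median was 0.06. The log2 fold change was positive in 21 and negative in 16. Without adjustment, 6 were higher and 4 lower under 0.05 by edgeR, and DESeq2 called 5 higher and 0 lower. *Cox5a* went from 308, 276 and 297 CPM to 558, 599, 758 and 591 CPM without overlap (log2 fold change 1.09, SE 0.25, edgeR adjusted p = 0.024), and *Uqcrfs1* had a log2 fold change of 0.94 (SE 0.25, edgeR adjusted p = 0.046). Neither was called without 2 dpi replicate 2, without 2 dpi replicate 3 or without 3 dpi replicate 4. Of 25 antioxidant and metallothionein genes 1 fell, the peroxidase *Prdx1*, from 114, 210 and 279 CPM to 43.8, 58.9, 41.1 and 31.2 CPM, before 598, 435 and 136 CPM at 4 dpi. Its fall was 2.20 (SE 0.48, edgeR adjusted p = 0.018), with an adjusted p of 0.094 by edgeR without 2 dpi replicate 3. Among 33 genes of endoplasmic reticulum folding and secretory load, *Pdia4*, a disulfide isomerase, and *Sec61b*, a subunit of the translocon, rose and *Ddit3*, a stress transcription factor, fell. The rises were 1.14 (SE 0.29, edgeR adjusted p = 0.039) for *Pdia4* and 0.98 (SE 0.26, edgeR adjusted p = 0.046) for *Sec61b*. With 1 library left out, *Sec61b* was called only without 3 dpi replicate 2. The call of *Pdia4* was lost without 2 dpi replicates 2 or 3 or 3 dpi replicate 1. *Ddit3* was at 55.1, 74.2 and 80.6 CPM at 2 dpi, at 24.4, 33.6, 27.1 and 33.9 CPM at 3 dpi and at 60.7, 77.7 and 67.4 CPM at 4 dpi. It fell by 1.23 (SE 0.25, edgeR adjusted p = 0.011), with 0.07 as its adjusted p by edgeR without 2 dpi replicate 2. Of 35 ribosome biogenesis genes only *Gar1* rose (log2 fold change 1.04, SE 0.27, edgeR adjusted p = 0.04), and it was called only without 3 dpi replicate 2. Of 32 glycolysis and hypoxia genes none passed the edgeR test, with 5 under 0.05 without adjustment and 1 by DESeq2, and of 23 cholesterol synthesis genes none did, with 1 and 0. *Gapdh*, the glycolytic enzyme often taken as a reference, was at 652, 362 and 396 CPM at 2 dpi and at 890, 3740, 668 and 676 CPM at 3 dpi, where replicate 2 was far above the rest, and its log2 fold change of 1.67 (SE 0.49) had an edgeR adjusted p of 0.071.

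Chemokines differed by gene. Of 23 CXC and CC chemokines 1 rose and 1 fell, 19 had a positive log2 fold change, and the median was 1.14. *Cxcl5*, a neutrophil attractant, was at 155, 91.5 and 78.4 CPM at 2 dpi, at 242, 399, 303 and 517 CPM at 3 dpi and at 105, 91.8 and 43.7 CPM at 4 dpi. Among these 3 days *Cxcl5* was highest at 3 dpi, with a rise of 1.75 (SE 0.46, edgeR adjusted p = 0.043) and a fall of 2.18 (edgeR adjusted p = 0.015) from 3 to 4 dpi. At 1 dpi, however, it was at 441, 382 and 164 CPM, so that the 1 and 3 dpi libraries overlapped. Its call was also lost without 2 dpi replicate 1 and without 3 dpi replicates 1 or 4. *Ccl19*, which attracts lymphocytes and dendritic cells, fell from 56.0, 174 and 80.1 CPM to 33.1, 23, 29.6 and 18.3 CPM (log2 fold change -1.99, SE 0.47, edgeR adjusted p = 0.025). Of 33 genes of interleukin-1 and interleukin-6 signalling, *Lif* rose (log2 fold change 1.12, SE 0.29, edgeR adjusted p = 0.043), and of 20 genes of MHC class I presentation, the immunoproteasome subunit *Psmb10* fell by 0.88 (SE 0.23, edgeR adjusted p = 0.043). None of these chemokine and cytokine calls was made without 2 dpi replicate 2 or without 2 dpi replicate 3. Of 35 interferon-stimulated genes none passed the edgeR test, with 3 under 0.05 without adjustment and 2 by DESeq2. Of 27 immediate early genes, which respond to tissue dissociation, none passed it either, with 8 under 0.05 without adjustment and 1 by DESeq2, and *Fos* was between 1570 and 2450 CPM at 2 dpi and between 2490 and 2760 CPM at 3 dpi.

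Markers of leukocytes and macrophages were higher in some 3 dpi libraries. Of 20 tested, 4 rose and none fell, 19 had a positive log2 fold change, and the median was 3.30, or 2.96 with the genes at 0 in every 2 dpi library set to the lower bound that 3 counts allow. *C1qa*, a subunit of complement C1q made by macrophages, was at 0.803, 0.319 and 0.75 CPM at 2 dpi and at 6.38, 0.0805, 37.4 and 25.1 CPM at 3 dpi. *Lyz2*, lysozyme, was at 1.71, 5.74 and 1.67 CPM at 2 dpi and at 25, 4.1, 106 and 124 CPM at 3 dpi. In both genes replicates 3 and 4 of 3 dpi were high and replicate 2 was within or below the 2 dpi range, so that the days overlapped. *C1qb* followed the same libraries, and *Cd14*, a receptor for lipopolysaccharide, rose from 8.46, 6.75 and 4.96 CPM to 15.6, 15.9, 34.0 and 28 CPM without overlap. The edgeR adjusted p-values were 0.024 for *C1qa*, 0.038 for *C1qb*, 0.022 for *Lyz2* and 0.0072 for *Cd14*, with log2 fold changes of 4.77 (SE 1.11), 3.79 (SE 0.96), 4.41 (SE 1.01) and 1.80 (SE 0.34). Summed over the 21 genes of the list, the level was 78.3, 126 and 63.9 CPM at 2 dpi and 132, 69.9, 497 and 419 CPM at 3 dpi. *C1qa* and *C1qb* were also the only 2 rises among 22 complement genes. The number of leukocyte markers called was 1, 0 and 0 without 2 dpi replicates 1 to 3 and 4, 8, 2 and 1 without 3 dpi replicates 1 to 4. At 4 dpi the sum was between 59.3 and 123 CPM, and none of the 20 was past the threshold against 2 dpi.

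Markers of other cells that the sort leaves out, or that lie beside fibroblasts, gave few calls. Of 13 endothelial genes *Egfl7* rose, with 26.4 CPM in 3 dpi replicate 3 and between 3.14 and 10.9 CPM in the other 3 dpi libraries, and was not called without that library (edgeR adjusted p = 0.098), and the summed endothelial level was between 118 and 246 CPM at 2 dpi and between 109 and 245 CPM at 3 dpi. Of 11 pericyte and smooth muscle genes 3 rose, *Notch3*, *Cspg4* and *Mcam*, the list summed to between 140 and 228 CPM at 2 dpi and between 254 and 320 CPM at 3 dpi, and none was called when any 1 of the 2 dpi libraries was left out. Of 13 cardiomyocyte genes *Nppa* fell, from at most 2.87 CPM. It had only 1, 5, 3 and 2 counts in 3 dpi replicates 1 to 4, about the floor of 3 counts, so that the size of its fall is uncertain. The summed cardiomyocyte level was between 20.7 and 35.7 CPM at 2 dpi and between 13.2 and 22 CPM at 3 dpi. Of 8 erythroid and platelet genes the near-identical *Hba-a1* and *Hba-a2* fell, with sums between 47.0 and 227 CPM at 2 dpi and between 37.7 and 119 CPM at 3 dpi, against 360 to 2410 CPM at 4 dpi. The *Hba* calls were lost without 2 dpi replicates 2 or 3 or 3 dpi replicates 1, 2 or 4 (edgeR adjusted p up to 0.25), and that of *Nppa* without 2 dpi replicate 2 or 3 dpi replicates 1 or 4 (up to 0.15). By edgeR, none of 6 neutrophil, 11 epicardial and 4 Schwann cell genes and not the 1 lymphocyte gene tested passed, with 1, 1, 0 and 0 under 0.05 without adjustment and 1, 0, 0 and 0 called by DESeq2. Of the 10 lymphocyte genes, *Cd3e* and *Cd3d*, which define T cells, were at 0 in all 7 libraries. The 10 together summed to between 0.462 and 1.45 CPM at 2 dpi and between 1.49 and 5.96 CPM at 3 dpi, without overlap. The part of these other cells in the changes was not tested.

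A list of 9 genes named by the study held the 6 RCF markers *Cthrc1*, *Ddah1*, *Postn*, *Fn1*, *Lox* and *Ptn* and the matrix genes *Aspn*, *Fndc1* and *Ltbp3*, which it gives as examples of D2, a gene set it took from RNA velocity, an estimate from single cells of where expression is heading. Of the 9, *Cthrc1* and *Fn1* rose from 2 to 3 dpi and none fell, and the median log2 fold change was 0.55, against 1.61 at 4 against 2 dpi. Since the study chose these genes on mouse CFs of this kind, the counts are not independent evidence. *Ddah1*, an enzyme that degrades asymmetric dimethylarginine, was at 8.3, 6.11 and 12.2 CPM at 2 dpi, at 14.1, 17.4, 11.4 and 18.1 CPM at 3 dpi and at 88.1, 105 and 72.9 CPM at 4 dpi. *Ptn*, the growth factor pleiotrophin, was at 16.9, 25.2 and 24.2 CPM, then at 25.3, 40.1, 37.1 and 20.4 CPM, and at 155, 176 and 341 CPM at 4 dpi. The 2 and 3 dpi libraries of these genes overlapped while those of 4 dpi lay far above, and the log2 fold changes at 3 against 2 dpi were 0.78 (SE 0.27, edgeR adjusted p = 0.11) for *Ddah1* and 0.48 (SE 0.32, edgeR adjusted p = 0.47) for *Ptn*. *Postn*, periostin, was between 605 and 1170 CPM at 2 dpi and between 1270 and 1550 CPM at 3 dpi (log2 fold change 0.59, SE 0.32, edgeR adjusted p = 0.34), and *Lox* had a log2 fold change of 0.01 (SE 0.37, edgeR adjusted p = 0.99). *Aspn*, asporin, was at 142, 197 and 267 CPM at 2 dpi and at 39.6, 89.6, 140 and 88.9 CPM at 3 dpi. It did not pass the test (log2 fold change -1.17, SE 0.40, edgeR adjusted p = 0.11) and was higher at 4 than at 3 dpi by 2.03 (edgeR adjusted p = 0.0099). The lists used here for D2 and for the other velocity set, D1, come from the study's spreadsheet and are shorter than the sets it describes. In the D1 list, 5 of 43 rose (*Actn1*, *P4ha3*, *Dut*, *Tyms* and *Palld*) and none fell, with a median of 0.13. In the D2 list, 4 of 57 rose (*Fn1*, *Smad7*, *Runx1* and *Col14a1*) and 2 fell (*Ogn* and *Nox4*), with a median of 0.02.

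Outside these lists, the largest rises that were not histone genes included several with few counts at 2 dpi. *Il2rg*, the common gamma chain of cytokine receptors, was at 1.18, 1.43 and 1.38 CPM at 2 dpi and at 9.13, 41.6, 8.84 and 7.44 CPM at 3 dpi, where replicate 2 stood apart, and its log2 fold change was 3.65 (SE 0.81, edgeR adjusted p = 0.02), a call that was lost without each of the 2 dpi libraries. *Kif26b*, a kinesin-like protein chosen here after its values were seen, was at 4.23, 2.44 and 4.62 CPM at 2 dpi, at 27.0, 16.1, 25.3 and 30 CPM at 3 dpi and at 19.2, 28.3 and 30.3 CPM at 4 dpi. Its rise of 2.71 (SE 0.42, edgeR adjusted p = 0.0027) was thus still seen at 4 dpi, with 2.78 against 2 dpi (edgeR adjusted p = 0.0019). Among the largest falls, *Ahsg*, the secreted protein fetuin-A, was at 132, 161 and 57.2 CPM at 2 dpi, at 29.4, 15.5, 33.7 and 7.34 CPM at 3 dpi and at 22.7, 20.8 and 10.1 CPM at 4 dpi. It fell by 2.44 (SE 0.46, edgeR adjusted p = 0.0072), and without 2 dpi replicate 2 the edgeR adjusted p was 0.063. *Ube3a*, a ubiquitin ligase, was at 32.9, 29.4 and 30.5 CPM at 2 dpi, at 9.22, 11.9, 12.2 and 10.5 CPM at 3 dpi and at 21.4, 26.1 and 30.5 CPM at 4 dpi. The spread within 2 and 3 dpi was small, and the fall was 1.5 (SE 0.23, edgeR adjusted p = 0.0024). An antisense RNA overlaps *Ube3a* and the strand setting of the counting is not given, so that their reads cannot be told apart.

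The changes differed in how far they were still seen at 4 dpi. Of the 255 rises, 45 (17.6%) were also past the threshold at 4 against 2 dpi, where 0.805% of all genes were higher, 45 (17.6%) turned back, that is, were lower at 4 than at 3 dpi by the same test (1.08% of all genes), and 165 did neither. Of the 157 falls, 5 (3.18%) were also past the threshold at 4 against 2 dpi, where 0.378% of all genes were lower, 74 (47.1%) turned back (1.63% of all genes were higher at 4 than at 3 dpi), and 78 did neither. These counts come from comparisons that share the 2 dpi or the 3 dpi libraries with the one that chose the genes. Without overlap, the 4 dpi libraries were above those of 2 dpi for 135 of the 255 rises (8.92% of all genes) and below them for 45 of the 157 falls (8.57% of all genes). The comparison of 4 with 1 dpi shares no library with that of 3 with 2 dpi, and 3.02% of all genes changed in it. Both come from 1 fit, in which each gene has 1 estimate of spread for all days. A gene with a small estimate passes more readily in both, so the share of all genes is not a chance level. There 97 of the 255 rises (38.0%, exact 95% interval 32.1% to 44.3%, which takes genes as independent) were higher, where 2.43% of all genes were, and 5 of the 157 falls (3.18%, 1.04% to 7.28%) were lower, where 0.592% of all genes were. The sign was the same at 4 against 1 dpi for 207 rises (81.2%, where 50.4% of all genes were higher) and 107 falls (68.2%, where 49.5% of all genes were lower). The median log2 fold change of the rises was 1.59 at 3 against 2 dpi, 1.02 at 4 against 2 dpi and 1.01 at 4 against 1 dpi, and that of the falls was -1.35, -0.35 and -0.24. The shares moved with single libraries. The rises also past the threshold at 4 against 2 dpi were 33.3% and 28.2% without 2 dpi replicates 2 and 3 and 11.1% and 9.47% without 4 dpi replicates 1 and 2, and those at 4 against 1 dpi were 85.2% and 64.1% without 2 dpi replicates 2 and 3. For the falls the shares lay between 0% (without 2 dpi replicate 2) and 10.9% (without 2 dpi replicate 3) at 4 against 2 dpi and between 1.6% (without 1 dpi replicate 2) and 12.7% (without 2 dpi replicate 3) at 4 against 1 dpi. Both directions together, 119 genes turned back, or 22 without 2 dpi replicate 2 and 277 without 3 dpi replicate 2, with 37 to 115 without any other single library.

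**Figure D4:**
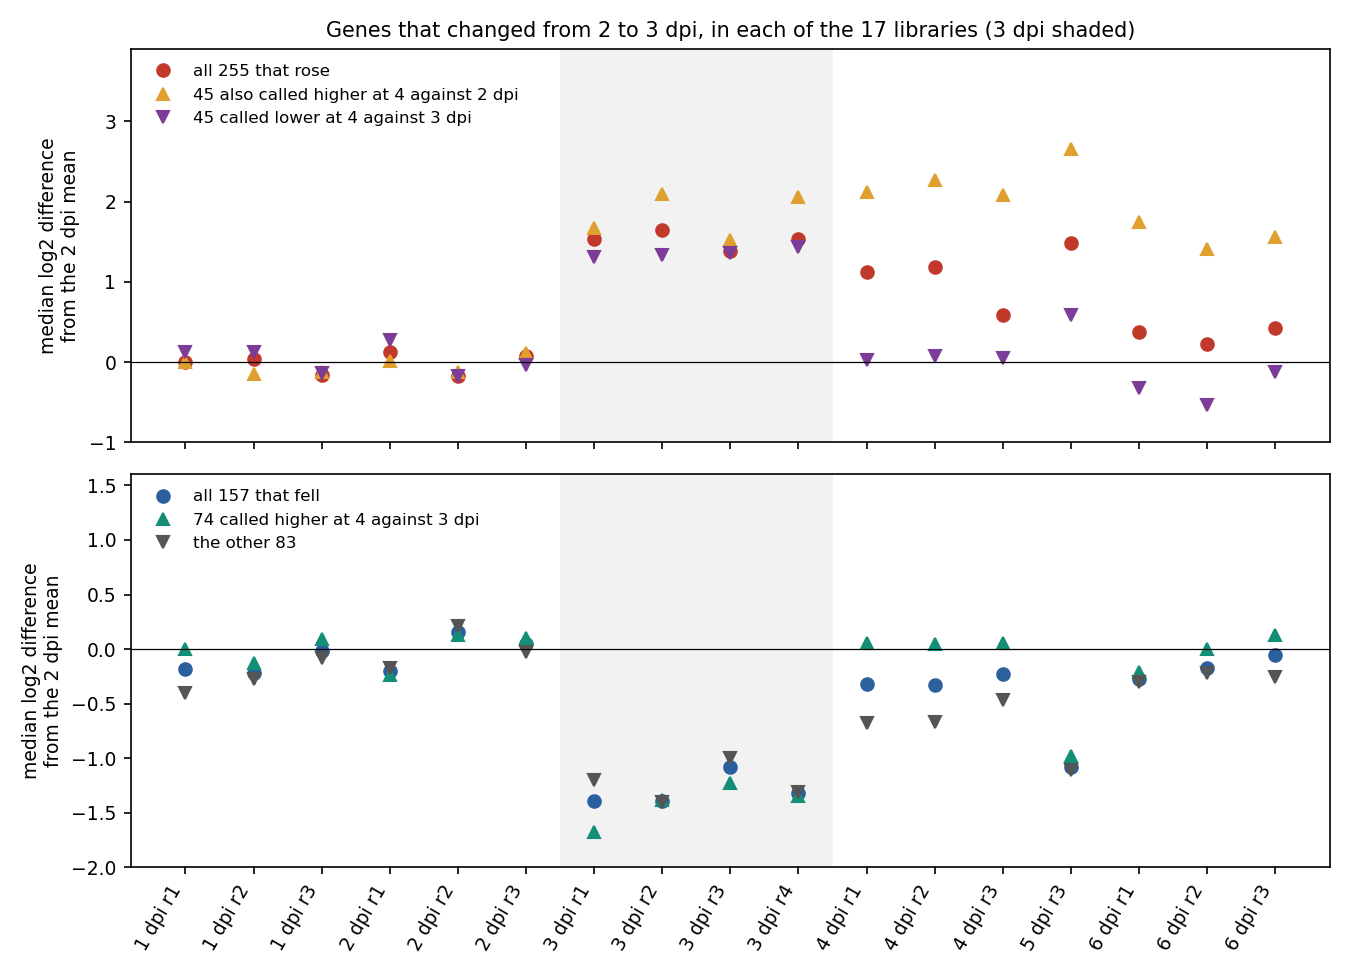
Median difference in log2 CPM from the 2 dpi mean, per library from 1 to 6 dpi, for the genes called higher and lower at 3 dpi and for subsets of them (rises that persisted or turned back at 4 dpi, falls that turned back or did not). The 3 dpi libraries lie between 1.38 and 1.64 for the 255 rises and between -1.39 and -1.08 for the 157 falls, and the single 5 dpi library lies at 1.48 and -1.08.

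The 45 rises that persisted at 4 dpi included the contractile genes *Acta2*, *Tagln*, *Tpm1*, *Cnn2*, *Csrp1*, *Palld* and *Cdh2*, the matrix genes *Fn1*, *Cthrc1*, *Col14a1*, *Col24a1*, *Col9a2* and *P4ha3*, and *Actg2*, *Sfrp2*, *Runx1*, *Notch3*, *Lrrc15*, *Piezo2* and *H19*. Of the mitosis list, *Ube2c* and *Cenpa* persisted and 2 of its 19 rises turned back, and the median of the list was 1.14 at 4 against 2 dpi. At 4 against 1 dpi, 16 of the 19 were higher. The median difference of the mitosis list from the 2 dpi mean was -2.44, -1.61 and -1.96 in 1 dpi replicates 1 to 3. The comparison of this list with 1 dpi thus also holds a rise from 1 to 2 dpi. The 45 that turned back included *Hmgb2*, *Pcna*, *Smad7*, *Cxcl5*, *Cd14*, *Mad2l1*, *Gtse1*, *Uqcrfs1* and 8 histone genes. The 5 falls that persisted were *Ahsg*, *Fetub*, *Irak3*, *Ifi207* and *Xdh*. Genes that fell and turned back included *Ogn*, *Lum*, *Ly6c1*, *Ddit3*, *Prdx1*, *Ptges3*, *Ube3a*, *Ccl19* and the 5 mitochondrially encoded genes. In the 4 dpi libraries the median difference of all 255 rises from the 2 dpi mean was 1.12, 1.18 and 0.59 for replicates 1 to 3, so that replicate 3 was the lowest, and in the 6 dpi libraries it was between 0.23 and 0.43. For the 157 falls it was between -0.33 and -0.23 at 4 dpi and between -0.27 and -0.05 at 6 dpi. The 5 dpi library, which entered neither comparison, was at 1.48 for the rises and -1.08 for the falls, within the range of the 3 dpi libraries. For the rises that turned back at 4 dpi it was at 0.59, and for the falls that turned back at -0.98. It is 1 library without a replicate, and no test was made. Its Y-linked sum was 44.6 CPM and its *Xist* level 0 CPM, close to the 3 dpi libraries. Those of 6 dpi held at most 0.768 CPM of the Y-linked genes and 85.6 CPM or more of *Xist*, like those of 4 dpi. The sex-linked difference thus divides the 3 and 5 dpi libraries from those of 4 and 6 dpi. This difference cannot be told apart from the day. The 1 dpi libraries were mixed, with a Y-linked sum of 10.6 CPM in replicate 1 and 59 CPM or more in replicates 2 and 3. *Xist* was at 211, 19 and 3.08 CPM in 1 dpi replicates 1 to 3. The comparison of 4 with 1 dpi thus also holds a sex-linked difference, which varied among the 1 dpi libraries.

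**Figure D5:**
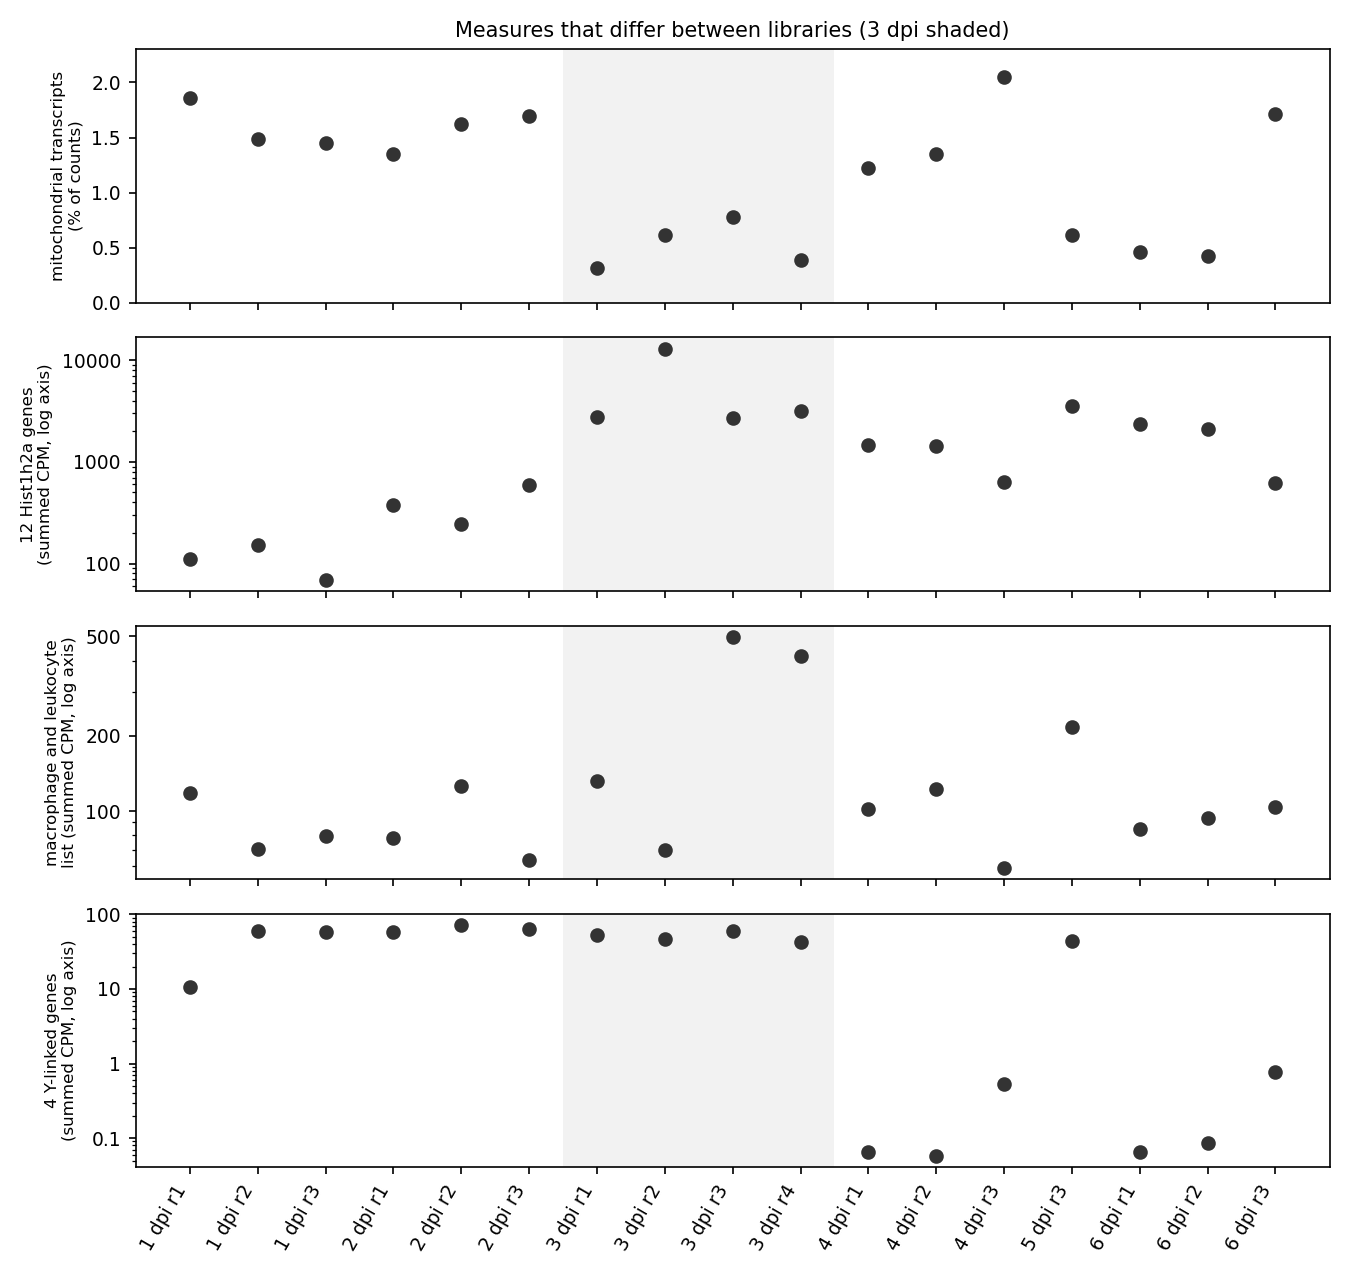
Per library from 1 to 6 dpi, the share of counts from the mitochondrial genome in percent, and the summed CPM of 12 H2A histone genes, of the leukocyte and macrophage list and of 4 Y-linked genes. The 4 libraries of 3 dpi have a mitochondrial share between 0.321% and 0.782%, below the 1.354% to 1.699% of 2 dpi, and the 5 dpi library has 0.62%.

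The measures that moved with the day were not alike across libraries. The mitochondrial share was low in all 4 libraries of 3 dpi, at 0.62% in the 5 dpi library and at 0.458%, 0.425% and 1.711% in 6 dpi replicates 1 to 3. The H2A sum was at least 2730 CPM in the 3 dpi and 5 dpi libraries and 2350, 2100 and 620 CPM in those of 6 dpi, and the leukocyte sum was 216 CPM at 5 dpi, above the 2 dpi range, and at most 132 CPM in 3 dpi replicates 1 and 2. Ribosomal protein genes took between 16.744% and 18.592% of the counts at 2 dpi and between 16.161% and 19.88% at 3 dpi, and the 100 most abundant genes took between 36.06% and 38.37% at 2 dpi and between 33.05% and 39.363% at 3 dpi. The part of these measures in the changes was not tested.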

How the data were processed

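Poly-A RNA of sorted GFP+/CD31-/CD45- CFs was sequenced by MARS-seq. Per the submitters' notes and the paper's methods, reads were demultiplexed by the authors with bcl2fastq (1.2.4), mapped with STAR to mm10 and assigned to Ensembl GRCm38.91 genes by featureCounts. The deposited file holds these raw counts, 1 column per library, for 31053 genes, of which 10484 had no count. No collapsing of molecular identifiers, strand setting or membership of the amplification pools is named, so counts are not independent molecules and depth gives counting error only. Symbols and positions are from GENCODE vM21 on GRCm38 (30934 matched), and 28 identifiers that shared a symbol with one of more counts were kept apart.

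Tables were handled with pandas 2.3.3 (Python 3.11.15). Genes that reached 10 counts in at least 3 libraries were tested in R 4.3.3 by edgeR's (4.0.16, with limma 3.58.1) quasi-likelihood F-test after TMM normalization. Day was a factor of 6 levels over all 17 libraries, so that all libraries shared 1 estimate of spread, without a block for the replicate number. Benjamini-Hochberg adjustment was made over all genes tested, and calls are at an adjusted p under 0.05. The study itself used DESeq2, which was run as an alternative (1.42.0). SEs are the size of the log2 fold change divided by the square root of F. CPM are counts scaled to TMM-normalized library sizes, and log2 CPM add a prior count of 2. A change persisted when the comparison of 4 with 2 dpi passed the threshold in the same direction, and turned back when that of 4 with 3 dpi passed it in the opposite direction. Intervals of shares are exact binomial (95%, scipy 1.17.1). The procedure was checked on simulated counts before use.

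Genes named are the 12 largest rises and the 12 largest falls that average 100 counts or more and do not overlap between the days, up to 4 members per list with the smallest adjusted p (where no member passed, the most abundant), the genes the study names, the sort and sex-linked genes, up to 6 that turned back in each direction, and any marker of other cells that passed, 100 genes in all. Other genes appear as members of a count or were chosen after their values were seen. The 42 gene lists, 9 of them of other cells, and the comparison itself were chosen with earlier results of these data known. The lists D1 and D2 come from the paper's supplementary spreadsheet by sheet name, since the column headers of those sheets name each other's dynamics. Lists are described by counts and medians, and no set test was run. Promoter sequences are from RefSeq on GRCm38.p6 (32851 windows, 27025 symbols). Figures were drawn with matplotlib (3.10.9). Alternatives were DESeq2's size factors, DESeq2, every gene with at least 1 count, the replicate number as a block, only the days compared, and each library left out in turn.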

Additional observations from a re-analysis of the deposited data

Results flagged for a closer look

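In 11 of the 100 named genes, 1 of the 4 libraries of 3 dpi lay far from the other 3 by Dixon's test, which sets its gap to the nearest library against the whole range. Chance gives about 1 in 20, which here is 5.0 genes. In 8 of the 11 the outlying library was replicate 2. In log2 CPM, replicate 2 was at 14.03 for *Col1a1* (others 12.23 to 12.53), 11.87 for *Gapdh* (9.39 to 9.8), 5.38 for *Il2rg* (2.92 to 3.21) and, below the others, at 7.07 for *Uqcrfs1* (7.75 to 7.87). It was also the outlier in 4 H2A genes that share reads and count as 1 signal, at 8.14 for *Hist1h2ab* (3.9 to 4.48), 9.8 for *Hist1h2ac* (7.38 to 7.67), 11.57 for *Hist1h2ao* (9.39 to 9.46) and 11.56 for *Hist1h2ap* (9.39 to 9.45).

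Replicate 3 of 3 dpi was low for *E2f7*, at 1.05 (others 2.66 to 2.97), and high for *Ogn*, at 6.72 (5.37 to 5.58), which was still below every 2 dpi library. Replicate 4 was low for the Y-linked *Ddx3y*, at 3.51 (4.09 to 4.13). The groups of other days have 3 libraries or fewer and were not examined in this way.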

How the results depend on the processing

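The count of 412 changed genes (255 higher, 157 lower) was 1033 (656 and 377) by DESeq2, which called all 412, 980 (615 and 365) with every gene of at least 1 count, 174 (110 and 64) with a replicate block and 252 (167 and 85) with only the 2 and 3 dpi libraries, where fewer libraries and genes enter. DESeq2's size factors gave 427. The genes that turned back numbered 311 by DESeq2, 334 with every gene of at least 1 count and 56 with the block. With every gene of at least 1 count, 26.8% of the rises and 12.9% of the falls were also past the threshold at 4 against 2 dpi and 8.77% of the falls at 4 against 1 dpi, and 47.3% of the rises were at 4 against 1 dpi under the block. Leaving out 1 library in turn gave 46 to 734 changed genes, 27 to 409 higher and 19 to 325 lower, with the lowest counts without 2 dpi replicate 2 and the highest without 3 dpi replicate 2. Those that turned back ranged from 22 to 277, the rises also past the threshold at 4 against 2 dpi from 9.47% to 33.3% and the falls from 0% to 10.9%, and at 4 against 1 dpi the rises from 31.5% to 85.2% and the falls from 1.6% to 12.7%. The cause of these differences was not tested.

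Higher calls made up 61.9% of all calls and between 62.8% and 66.3% in these alternatives with every library of the days compared. None of the 82 named genes past the threshold changed sign in the alternatives run on them, whereas *Lox* (0.01) was at -0.03 with the block and down to -0.21 with 1 library left out, never past the threshold. Of the 82 genes, 23 remained past it without each of the 7 libraries in turn. Same-numbered libraries of 2 and 3 dpi did not deviate together (mean correlation -0.041 over 3 pairs, against 0.014 over 9 pairs of different number), so that the replicate block rests on numbers alone. Of the 412 genes, 168 were called with the block. Replicate 4 of 3 dpi has no partner. Depth was lower at 3 than at 2 dpi, yet more genes had a count. They numbered between 15436 and 15857 per library at 3 dpi and between 14682 and 15182 at 2 dpi, with 15738 in the 5 dpi library. The part of this difference in the changes was not tested. Genes near the floor of 3 counts could not be compared.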
